A study of Mus musculus with 59 samples.

Results

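The 44 genes described here encode the enzymes and factors that copy, transcribe and translate the mitochondrial genome, and they were chosen by symbol from the 57180 gene rows of the deposited count table. They comprise 3 genes of mitochondrial DNA replication, 3 of transcription, 10 of RNA processing, stability and decay, 4 of ribosomal RNA modification and ribosome assembly, 8 translation factors and 16 aminoacyl-tRNA synthetases. Each of the 44 symbols stood on 1 row, and all 44 passed the filter on low counts in every comparison.

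Mitochondria carry a small circular genome that encodes core subunits of the respiratory chain, together with the ribosomal and transfer RNAs needed to translate them. Every protein that replicates, transcribes, matures and translates this genome is encoded in the nucleus, made in the cytosol and imported. Inherited defects of many of these genes, DNA polymerase gamma and several mitochondrial tRNA synthetases among them, are known to affect the brain.

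Cortex and hippocampus of male mice of 4 labelled genotypes were profiled by sequencing of poly(A) RNA. Wild type carries Mrpl40 +/+ and Slc25a1 +/+, Slc25a1 het carries Slc25a1 -/+ alone, Mrpl40 het carries Mrpl40 -/+ alone, and double het carries both heterozygous alleles. In that order cortex had 9, 7, 7 and 7 libraries and hippocampus 8, 7, 7 and 7, from 30 animals of which 29 gave both tissues; age, strain and the kind of each mutation were not given in the labels. Slc25a1 is the carrier of citrate across the inner mitochondrial membrane. Mrpl40 belongs to the large subunit of the mitochondrial ribosome and so acts in the same pathway as the 44 genes.

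Library totals ranged from 21443017 to 32120906 counts. The level of Slc25a1 went against the label in 6 of the 30 animals, in both tissues of each. Among libraries labelled Slc25a1 -/+ the level was 10.8 to 13.1 CPM (counts per 1000000 library counts) in 20 and 21.0 to 27.3 CPM in 8, and among libraries labelled Slc25a1 +/+ it was 21.8 to 26.3 CPM in 27 and 11.2 to 12.7 CPM in 4. Genotypes are therefore named as labelled throughout. Mrpl40 itself did not pass the test in animals labelled Mrpl40 het, at a log2 difference from wild type of -0.04 ± 0.0609 (SE) in cortex and -0.00 ± 0.0537 in hippocampus, and this level checks the label only if the mutation lowers the RNA. Summed markers of the tissues did not overlap, at 730.1 to 997 CPM in cortex against 241 to 358 CPM in hippocampus for 7 cortical markers and 189 to 294 CPM against 1028 to 1828 CPM for 8 hippocampal markers. In 4 hippocampal libraries, of animals 8, 12, 22 and 30, marker sums stood apart. Cerebellar markers summed to 547 CPM in animal 12 against 5.24 to 23.4 CPM in the 25 other libraries, and choroid plexus markers to 82.7 and 98.0 CPM in animals 22 and 30 against 24.6 to 54.1 CPM. In animal 8, oligodendrocyte markers summed to 4772 CPM against 2017 to 4322 CPM and cortical markers to 358 CPM against 241 to 309 CPM. The 37 rows for genes of the mitochondrial genome, the templates and products of this machinery, were listed at 0 in every library, and their levels are not analysed here.

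Between genes, levels are compared as counts per kilobase of merged exons, scaled to a sum of 1000000 over all genes with a length. On this scale the median over the 44 genes was 17.4 in cortex and 18.1 in hippocampus. The highest was Lars2, the leucyl-tRNA synthetase, at 240.2 ± 73.7 (SD, n = 30) in cortex and 330.1 ± 84.8 (SD, n = 29) in hippocampus. Tufm, the elongation factor that delivers charged tRNA to the ribosome, followed at 73.6 ± 3.71 and 68.3 ± 4.79 in the same order. Ptcd2, a factor for processing of the cytochrome b transcript, was the third at 60.4 ± 3.67 and 54.9 ± 2.90. These 3 means lay further apart than 1 SD of either neighbour in each tissue. The lowest were Slirp, a partner of Lrpprc in binding mitochondrial messenger RNA, at 1.34 ± 0.357 in cortex and 1.47 ± 0.345 in hippocampus, and Polg2, the accessory subunit of DNA polymerase gamma, at 2.26 ± 0.303 and 3.59 ± 0.602. Just above them, Wars2 at 4.15 ± 0.522 and Tfb1m at 4.33 ± 0.586 in cortex did not differ beyond their spread; in hippocampus Tfb1m was at 4.00 ± 0.474 and Wars2 at 5.09 ± 0.523.

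**Figure D1:**
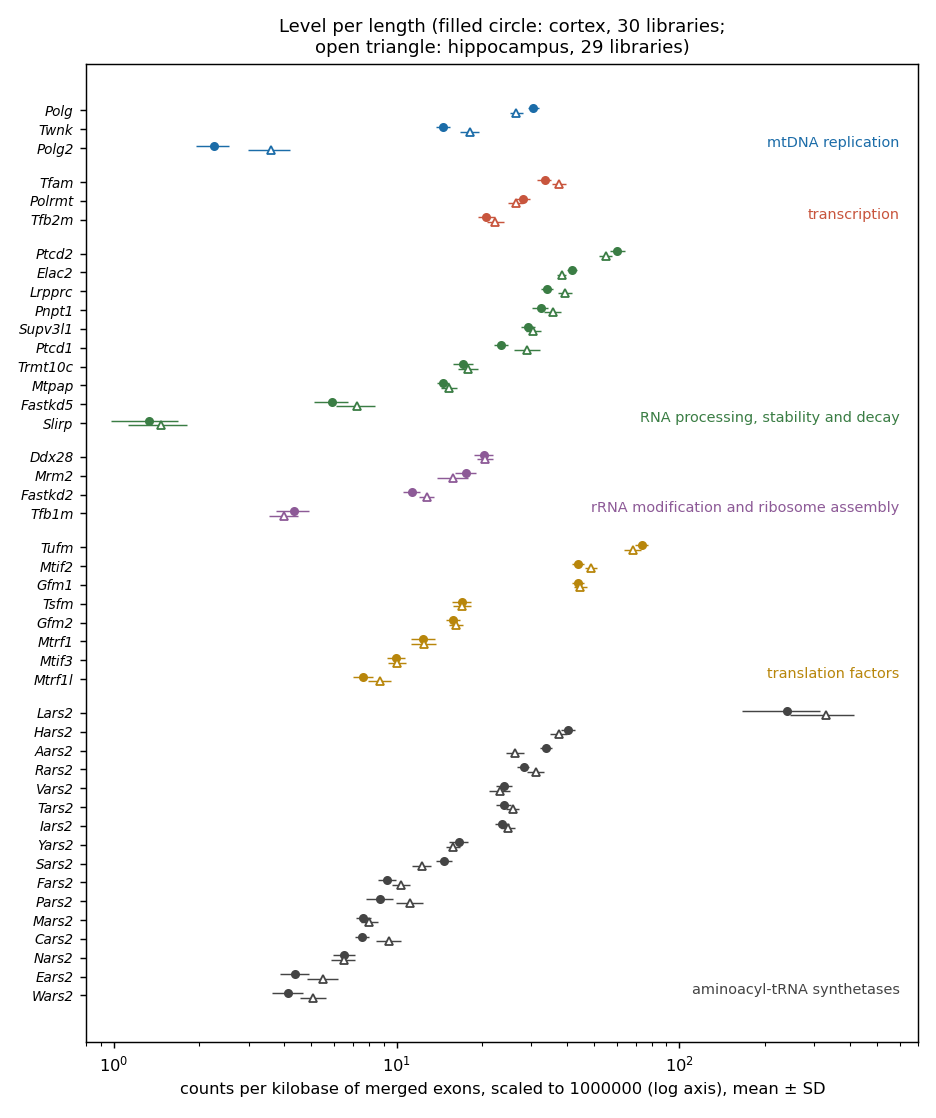
Level of each of the 44 genes per kilobase of merged exons, scaled to 1000000 in all, on a log axis; points are means over 30 cortical (filled circles) and 29 hippocampal libraries (open triangles), bars are SD, and colours mark the roles. Lars2 stands far to the right in both tissues, Slirp and Polg2 lie lowest, and most genes fall between 5 and 50.

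The length of a gene model moved some of these levels. With the longest transcript of Lars2 (3894 bases) in place of its merged exons (11089 bases), its level was 539 in cortex and 740.2 in hippocampus. Ranks moved for other genes. By longest transcripts Ptcd2 fell to rank 5 in both tissues, at 47.6 in cortex and 43.2 in hippocampus. Lrpprc then had rank 3, at 52.0 and 60.3. In cortex Ears2, at 3.63, then lay below Wars2 at 4.41 and Tfb1m at 5.09. Slirp shares 93.9% of its exonic bases with Snw1 on the opposite strand, and Fastkd5 shares 65.2% with Ubox5 on the same strand, in the GENCODE vM21 annotation. Which strand setting the counting used was not stated by the submitters. The counts of Slirp, 14 to 51 per library, could therefore hold reads of Snw1 or lack reads left out for lying in both genes. Reads in the bases shared with Ubox5 cannot be told apart by strand, which makes the counts of Fastkd5, 84 to 222 per library, uncertain too. A processed pseudogene, Gm9755, matches Tufm at 99.9% identity over 1356 bases, and Gm1818 matches Tfb2m at 99.3% over 1187 bases. Reads of these genes could be shared with the copies or go uncounted. On the opposite strand, Mtif3 shares 29.4% of its exonic bases with Gtf3a and Iars2 22.9% with Rab3gap2. Mtpap shares 18.5% with Gm26865 and Twnk 12.6% with Mrpl43 in the same way. Short stretches of Polg2 and Mtif2 match many other genes at 95% identity or more. Any part of these stretches in the counts was not tested.

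The spread between animals of 1 group was computed for the 44 genes and was not compared with that of all genes. The coefficient of variation of CPM within a group, averaged over the 8 groups, had a median of 6.50% over the 44 genes and was under 10% for 35 of them. Elac2, which trims the ends of mitochondrial tRNA precursors, was the steadiest at 3.87%, and Polg, the catalytic subunit of the DNA polymerase, followed at 3.95%. The widest spreads were those of Lars2 at 26.3%, Slirp at 24.7% and Fastkd5 at 14.3%. Lars2 differed from the other wide genes in that its spread came with high counts, of 8177 to 43392 per library.

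Across libraries the level of Lars2 went with that of Gm15564, a gene chosen for this comparison after its values were seen. Across 30 cortical libraries the correlation of log2 CPM was r = 0.896 (Pearson; permutation p = 1e-05, the smallest that 100000 permutations can give) and rho = 0.895 (Spearman; permutation p = 1e-05). Across 29 hippocampal libraries it was r = 0.885 and rho = 0.894, each with a permutation p = 1e-05. Without the 2 libraries farthest from the median of Gm15564, r was 0.838 in cortex and 0.831 in hippocampus. These 2 correlations, 1 per tissue, were the only ones computed for a pair of genes, and because the pair was picked for its likeness the p-values describe it and are no independent test. The libraries of the 4 genotypes were pooled within each tissue, and a Benjamini-Hochberg adjustment over the 4 p-values leaves each at 1e-05.

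**Figure D2:**
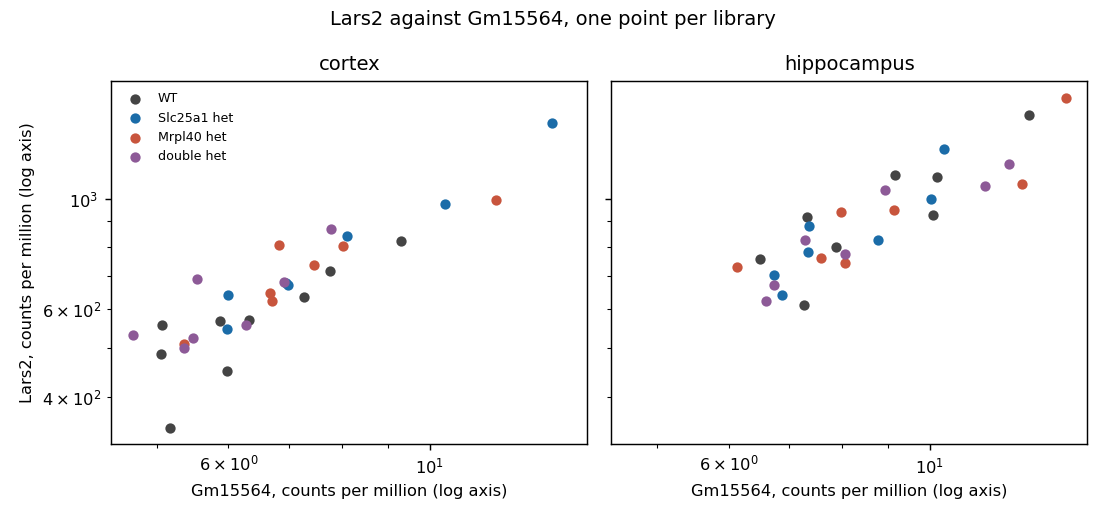
CPM of Lars2 against CPM of Gm15564, both on log axes, with 1 point per library, in cortex (left, 30 libraries) and hippocampus (right, 29 libraries); colours are the labelled genotypes. Both genes rise together in each tissue, and libraries of the 4 genotypes intermingle.

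The comparison of tissues asked how the machinery differs between hippocampus and cortex of the same animals, averaged over the 4 labelled genotypes. Of the 44 genes, 34 passed the test, 22 higher and 12 lower in hippocampus. Over all 21354 genes tested, 77.5% passed, 39.8% higher and 37.7% lower, so that the share of the 44 genes that differed, 77.3%, was near the background. The median of the 44 log2 differences was 0.05, against 0.01 over all genes, with rises and falls cancelling in part. Without regard to sign the median of the 44 was 0.13. At a fold of at least 1.2, 10 of the genes passed the test, and the share of all genes at that fold was not counted. In bulk tissue, fewer cells of a type and less RNA per cell cannot be told apart. Summed markers moved with the tissue too, with medians in cortex and hippocampus of 8468 and 5843 CPM for 8 neuronal markers, 4693 and 5541 CPM for 8 astrocyte markers, and 2426 and 2833 CPM for 8 oligodendrocyte markers; their part in the differences was not tested.

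**Figure D3:**
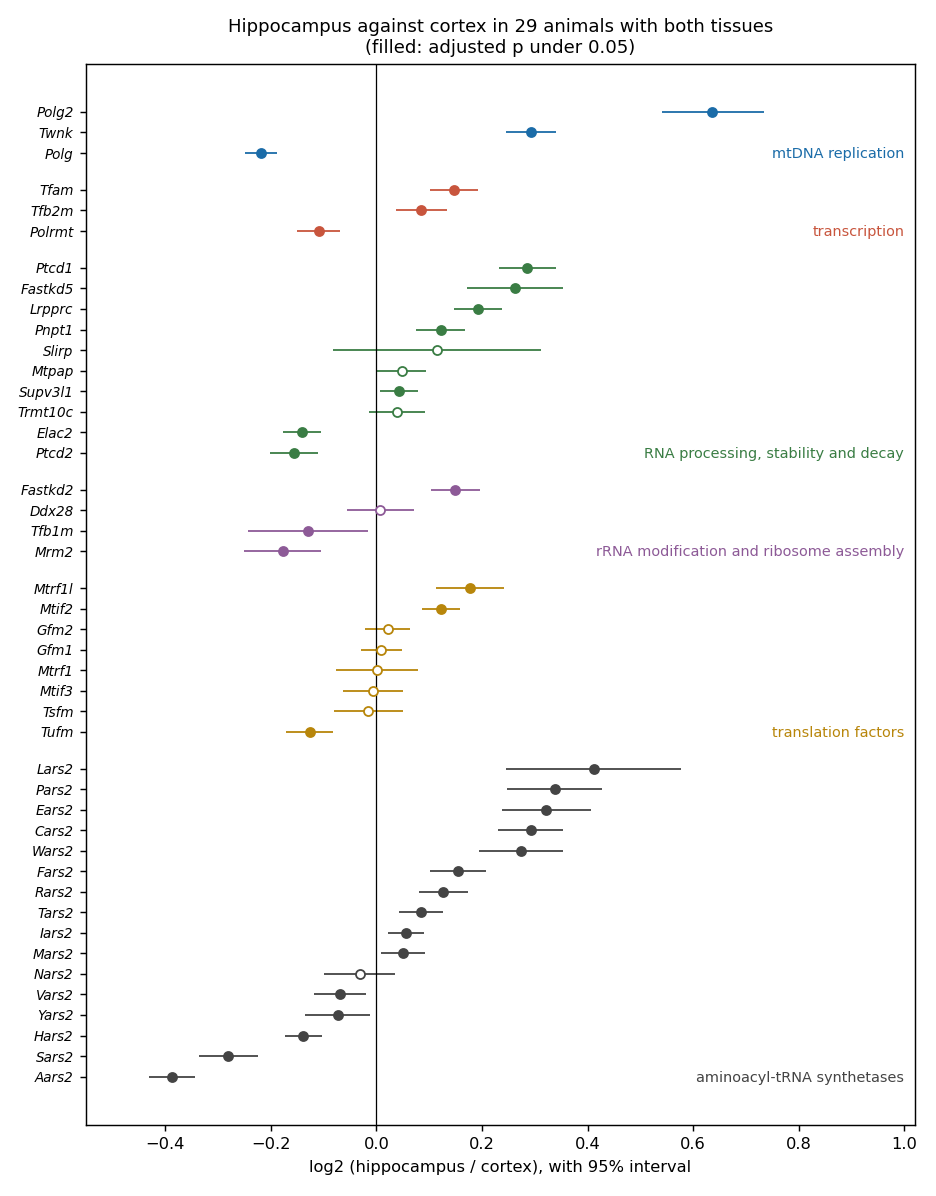
Log2 difference of hippocampus from cortex for each of the 44 genes, by role, fitted in 29 animals with both tissues; bars are 95% intervals and filled points have an adjusted p under 0.05. Within every role, members lie on both sides of 0, from Aars2 at -0.39 to Polg2 at 0.64.

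The 3 replication genes did not move together. Polg2 had the largest rise of the 44 genes, with a lowest, median and highest level of 1.73, 2.51 and 3.19 CPM in cortex versus 2.12, 4.00 and 4.95 CPM in hippocampus. It was higher in hippocampus in all 29 animals, by a log2 difference of 0.64 ± 0.0477 (adjusted p = 2.3e-14), a 1.55-fold rise, although the ranges of the tissues overlapped; the lowest hippocampal library was that of animal 22. Polg went the other way, from 76.9, 84.1 and 90.3 CPM in cortex to 64.2, 71.8 and 77.9 CPM in hippocampus. It was lower in hippocampus in all 29 animals, at -0.22 ± 0.0149 (adjusted p = 1.6e-15). Twnk, the helicase that opens the DNA ahead of the polymerase, had a lowest, median and highest level of 13.3, 14.9 and 16.4 CPM in cortex versus 15.8, 18.3 and 21.0 CPM in hippocampus, and was higher in all 29 animals, at 0.29 ± 0.0230 (adjusted p = 8.1e-14).

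Of the 3 transcription genes, 2 were higher and 1 was lower in hippocampus. Tfam, which packages mitochondrial DNA and bends the promoters at which transcription starts, was at 32.4, 38.0 and 42.6 CPM in cortex versus 37.8, 41.4 and 46.3 CPM in hippocampus, higher in 25 of 29 animals (0.15 ± 0.0224, adjusted p = 3.5e-07). Tfb2m, the initiation factor, was higher at 0.08 ± 0.0239 (adjusted p = 0.00178), though its copy Gm1818 was also higher in 28 of 29 animals. Polrmt, the mitochondrial RNA polymerase, was at 30.5, 33.4 and 36.7 CPM in cortex versus 27.4, 31.3 and 35.1 CPM in hippocampus and lower in 26 of 29 animals (-0.11 ± 0.0198, adjusted p = 6.4e-06). With trends on gene length and GC content removed from each library, Polrmt turned to 0.01 (adjusted p = 0.550), and Tfb2m was at 0.04 and no longer passed (adjusted p = 0.105).

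The sequences before the start sites are shown for all 6 genes of replication and transcription, since members of each role differed in opposite directions. They hold the 250 bases before the annotated start, 5′ to 3′ on the gene's strand, from RefSeq on GRCm38.p6, with capitals marking CCGGAAG, the core bound by ETS factors such as GABPA, or its reverse complement CTTCCGG.
Polg, lower in hippocampus (chr7:79466274-79466523, minus strand): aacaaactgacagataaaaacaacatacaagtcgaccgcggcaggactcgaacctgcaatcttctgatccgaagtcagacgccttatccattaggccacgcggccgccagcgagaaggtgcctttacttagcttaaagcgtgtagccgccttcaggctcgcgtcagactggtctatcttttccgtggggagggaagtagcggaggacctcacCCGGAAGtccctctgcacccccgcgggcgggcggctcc
Polg2, higher in hippocampus (chr11:106779538-106779787, minus strand): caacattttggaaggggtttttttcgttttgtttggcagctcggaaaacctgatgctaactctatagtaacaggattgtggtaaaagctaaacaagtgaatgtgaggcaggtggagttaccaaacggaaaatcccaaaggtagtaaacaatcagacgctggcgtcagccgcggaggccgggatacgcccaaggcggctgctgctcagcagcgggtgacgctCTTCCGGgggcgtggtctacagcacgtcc
Twnk, higher in hippocampus (chr19:45005413-45005662, plus strand): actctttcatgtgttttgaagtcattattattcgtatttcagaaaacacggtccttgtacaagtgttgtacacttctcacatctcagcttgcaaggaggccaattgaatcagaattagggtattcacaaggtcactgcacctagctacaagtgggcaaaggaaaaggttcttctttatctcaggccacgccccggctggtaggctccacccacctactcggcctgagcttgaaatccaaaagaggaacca
Tfam, higher in hippocampus (chr10:71238045-71238294, minus strand): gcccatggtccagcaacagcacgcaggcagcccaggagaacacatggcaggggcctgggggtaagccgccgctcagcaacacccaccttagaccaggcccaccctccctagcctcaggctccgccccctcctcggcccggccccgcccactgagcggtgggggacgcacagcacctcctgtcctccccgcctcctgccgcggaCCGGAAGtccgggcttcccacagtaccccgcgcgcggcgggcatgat
Tfb2m, higher in hippocampus, but not past the test with length and GC trends removed (chr1:179546277-179546526, minus strand): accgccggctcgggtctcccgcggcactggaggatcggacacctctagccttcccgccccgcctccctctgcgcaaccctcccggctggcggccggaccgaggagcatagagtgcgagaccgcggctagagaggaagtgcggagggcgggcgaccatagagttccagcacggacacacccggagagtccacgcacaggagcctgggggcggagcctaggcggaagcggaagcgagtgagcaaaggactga
Polrmt, lower in hippocampus except with length and GC trends removed (chr10:79746582-79746831, minus strand): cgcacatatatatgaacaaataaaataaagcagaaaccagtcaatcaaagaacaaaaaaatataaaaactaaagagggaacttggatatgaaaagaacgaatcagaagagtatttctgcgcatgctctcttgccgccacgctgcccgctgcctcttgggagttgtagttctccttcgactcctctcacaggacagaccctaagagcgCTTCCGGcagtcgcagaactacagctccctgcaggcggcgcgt

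The ETS letters began 38 bases before the start of Polg, 29 before that of Polg2, 47 before that of Tfam and 43 before that of Polrmt, and were not in the sequences of Twnk and Tfb2m. For Twnk and Aars2, 2 starts were listed for each, and only the first listed was used here. Both polymerase subunits, Polg and Polg2, carried the ETS letters, and any part of these letters in the tissue differences was not tested. Promoter windows of 300 bases, 250 before and 50 after the start, were used for 40 of the 44 genes. Mtpap, Mtif3, Hars2 and Pars2 had none in use, either because none was listed or because of the chromosome left out. Windows on 1 chromosome were left out for the 44 genes but kept among all promoters, so that the shares below were not taken from windows chosen alike. On either strand, CCGGAAG was in 16 of the 40 (40%), against 9.12% of all 27025 promoters in the table and 11.9% of 17491 protein-coding ones. An NRF1 core with 1 free base, made of GCGCA, any base and GCGC, was in 5 of 40 (12.5%) against 4.78% and 6.60%, the same core with T as that base in 0 of 40 against 0.977% and 1.32%, and the YY1 letters AAGATGGC in 5 of 40 (12.5%) against 2.88% and 3.22%. The median GC content of the windows was 60.0% in the 40 genes, 52.7% in all promoters and 56.3% in protein-coding ones. A match of letters is a description and shows no binding.

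RNA processing, stability and decay had 10 members, of which 5 were higher, 2 lower and 3 did not pass the test. Ptcd1, which acts on leucine tRNAs and the large ribosomal RNA, was at 17.0, 19.3 and 21.5 CPM in cortex versus 19.3, 24.0 and 28.8 CPM in hippocampus, higher in 28 of 29 animals (0.29 ± 0.0270, adjusted p = 9.5e-12). Fastkd5, needed to mature messenger RNAs that no tRNA borders, was higher at 0.26 ± 0.0448. Lrpprc, which stabilises mitochondrial messenger RNA, was higher at 0.19 ± 0.0222, Pnpt1, the exoribonuclease, at 0.12 ± 0.0231, and Supv3l1, its helicase partner, at 0.04 ± 0.0174. Of these Supv3l1 rested on the setting, and with the DESeq2 Wald test its adjusted p was 0.0642. The lower members were Ptcd2 at -0.16 ± 0.0225 and Elac2 at -0.14 ± 0.0175, lower in 27 and 28 of 29 animals. Slirp (0.11 ± 0.0967), the poly(A) polymerase Mtpap (0.05 ± 0.0227) and the RNase P subunit Trmt10c (0.04 ± 0.0257) did not pass.

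Among the 4 genes of ribosomal RNA modification and ribosome assembly, 1 was higher and 2 were lower in hippocampus. Mrm2, a methyltransferase of the large ribosomal RNA, was at 5.28, 6.51 and 7.67 CPM in cortex versus 4.20, 5.70 and 7.06 CPM in hippocampus, lower in 24 of 29 animals (-0.18 ± 0.0356, adjusted p = 3.3e-05). Fastkd2, which binds the large ribosomal RNA, was at 14.9, 16.8 and 19.9 CPM in cortex versus 17.2, 18.5 and 21.3 CPM in hippocampus, higher in 28 of 29 animals (0.15 ± 0.0232, adjusted p = 5.1e-07). Tfb1m, which methylates the small ribosomal RNA, was lower at -0.13 ± 0.0563 (adjusted p = 0.0366), a call lost without the 6 animals named above (-0.10, adjusted p = 0.135). Ddx28, an RNA helicase of ribosome assembly, was at 0.01 ± 0.0313 and did not pass, although it did with length and GC trends removed (0.07, adjusted p = 0.0321).

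Of the 8 translation factors 2 were higher, 1 was lower and 5 did not pass the test, and the median log2 difference was 0.01. The initiation factor Mtif2 was at 38.5, 43.4 and 46.8 CPM in cortex versus 43.1, 47.1 and 52.0 CPM in hippocampus, higher in 27 of 29 animals (0.12 ± 0.0178, adjusted p = 1.6e-07). The release factor Mtrf1l was higher at 0.18 ± 0.0315 and Tufm was lower at -0.13 ± 0.0221. The members that did not pass were Gfm1, the translocase (0.01 ± 0.0190), Gfm2, which recycles ribosomes (0.02 ± 0.0207), Tsfm, which recharges Tufm (-0.02 ± 0.0323), the initiation factor Mtif3 (-0.01 ± 0.0278) and the release factor Mtrf1 (0.00 ± 0.0380). For each of these 5 the 95% interval lay within a 1.2-fold change.

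The tRNA synthetases, which charge mitochondrial tRNAs with their amino acids, differed in both directions. Of 16 members 10 were higher and 5 lower in hippocampus, and Nars2, for asparagine, did not pass (-0.03 ± 0.0332). Aars2, for alanine, had the largest fall of the 44 genes. Its lowest, median and highest levels were 37.0, 41.7 and 43.9 CPM in cortex versus 23.6, 31.5 and 35.0 CPM in hippocampus, at a log2 difference of -0.39 ± 0.0215 (adjusted p = 4.8e-18). Aars2 was lower in all 29 animals and was the 1 gene of the 44 whose tissue ranges did not overlap. The share of all genes with such ranges was not counted. With length and GC trends removed its difference was -0.27. Sars2, for serine, followed with 10.8, 12.6 and 14.1 CPM in cortex versus 8.55, 10.4 and 11.4 CPM in hippocampus, lower in 28 of 29 animals (-0.28 ± 0.0271, adjusted p = 1.8e-11). Hars2 (-0.14 ± 0.0170), Yars2 (-0.07 ± 0.0304) and Vars2 (-0.07 ± 0.0243), for histidine, tyrosine and valine, were lower by less, and Vars2 turned to 0.04 with those trends removed.

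Lars2 had the largest rise among the synthetases, from 347, 643 and 1421 CPM in cortex to 611, 882 and 1596 CPM in hippocampus, at 0.41 ± 0.0804 (adjusted p = 5.3e-05). It was higher in 24 of 29 animals, and the tissue ranges overlapped widely. Gm15564 was higher in 25 of 29 animals as well. Pars2, for proline, was at 5.71, 6.84 and 8.75 CPM in cortex versus 6.32, 8.85 and 10.4 CPM in hippocampus (0.34 ± 0.0444, adjusted p = 2e-08), and Ears2, for glutamate, at 4.43, 5.76 and 7.21 CPM and 5.35, 7.23 and 8.55 CPM (0.32 ± 0.0414, adjusted p = 1.2e-08). Each was higher in 27 of 29 animals. Cars2, for cysteine, was at 12.2, 13.8 and 15.7 CPM in cortex versus 13.8, 17.1 and 21.0 CPM in hippocampus and higher in 28 of 29 animals (0.29 ± 0.0303, adjusted p = 9.4e-11). Smaller rises were those of Wars2 (0.27 ± 0.0394), Fars2 (0.15 ± 0.0262), Rars2 (0.13 ± 0.0231), Tars2 (0.09 ± 0.0204), Iars2 (0.06 ± 0.0167) and Mars2 (0.05 ± 0.0207), for tryptophan, phenylalanine, arginine, threonine, isoleucine and methionine. The calls of Mars2 and Yars2 were lost under some settings, with an adjusted p of 0.0528 for Mars2 by the DESeq2 Wald test and of 0.102 for Yars2 without the 4 hippocampal libraries that stood apart.

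**Figure D4:**
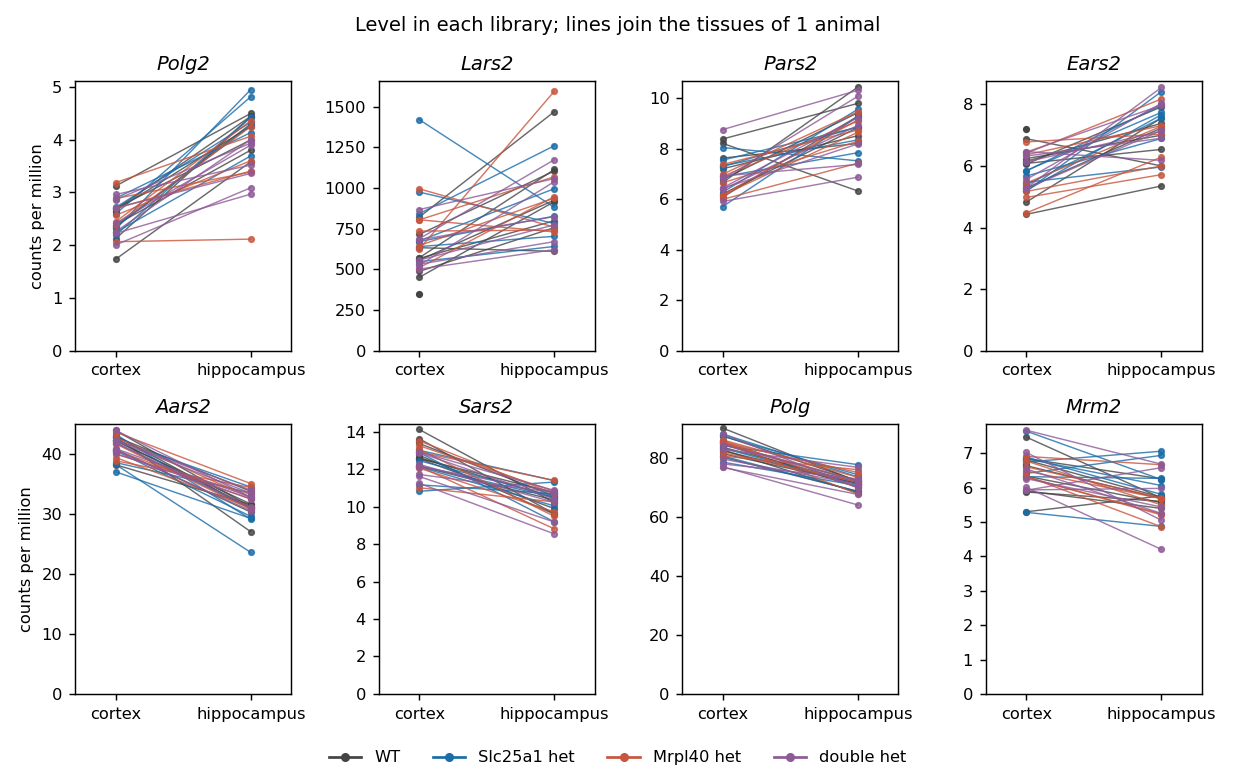
CPM in cortex and hippocampus of the 4 genes with the largest rises (top) and the 4 with the largest falls (bottom); each point is a library, lines join the tissues of 1 animal and colours are the labelled genotypes. Polg2 rises and Aars2 and Polg fall in all 29 animals, whereas lines cross for Lars2 and Mrm2.

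Counts for other genes of the pathway and its regulators are to be read against the 77.5% of all genes that passed, 39.8% higher and 37.7% lower. Of 62 further factors of mitochondrial gene expression, all tested, 32 were higher and 16 lower in hippocampus, with a median log2 difference of 0.07. Those with the smallest p were Mrm1 (-0.99 ± 0.0352), another methyltransferase of the large ribosomal RNA, Mtg1 (0.61 ± 0.0249), a GTPase of ribosome assembly, and Rpusd3 (1.15 ± 0.0590), a pseudouridine synthase. Of 19 cytosolic tRNA synthetases 9 were higher and 8 lower, led by Dars (0.62 ± 0.0181), Sars (-0.42 ± 0.0190) and Cars (-0.49 ± 0.0245). The cytosolic and mitochondrial enzymes for serine were both lower in hippocampus, and those for cysteine differed in opposite directions. Among 13 transcriptional regulators of nuclear mitochondrial genes, 6 were higher and 6 lower. Gabpa (0.51 ± 0.0201) and Gabpb2 (0.86 ± 0.0335), subunits of the ETS factor GABP, were higher, and the nuclear receptor Esrra (-0.45 ± 0.0199) was lower.

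Comparisons of each labelled genotype with wild type asked whether loss of 1 copy of Slc25a1, of Mrpl40 or of both changed the machinery. None of the 44 genes passed the test of edgeR in any of the 6 comparisons, and DESeq2 called 0 as well. Slc25a1 itself did not pass the test of edgeR either. It was at -0.53 ± 0.197 in cortex and -0.53 ± 0.220 in hippocampus labelled Slc25a1 het. In double het it was at -0.61 ± 0.199 and -0.46 ± 0.220. These labelled groups, with the animals that went against the label, therefore cannot show that a gene was unchanged. At an unadjusted p under 0.05 there were 2, 0 and 4 genes in cortex labelled Slc25a1 het, Mrpl40 het and double het, and 2, 1 and 2 in hippocampus. Over all genes the test called 0%, 0.0294% and 0.0686% in cortex and 0%, 0.00496% and 0.00992% in hippocampus, and an unadjusted p under 0.05 was reached by 3.17%, 6.94% and 10.9% and by 7.77%, 8.19% and 5.28% in the same order. In the order above, the 95% interval lay within a 1.2-fold change for 39, 38 and 41 of the 44 genes in cortex and for 37, 40 and 39 in hippocampus. Within a 1.5-fold change lay all but Lars2 in cortex labelled Slc25a1 het, all but Slirp and Lars2 in cortex labelled Mrpl40 het, all but Slirp in hippocampus labelled Slc25a1 het or double het, and all 44 in the other 2 comparisons.

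**Figure D5:**
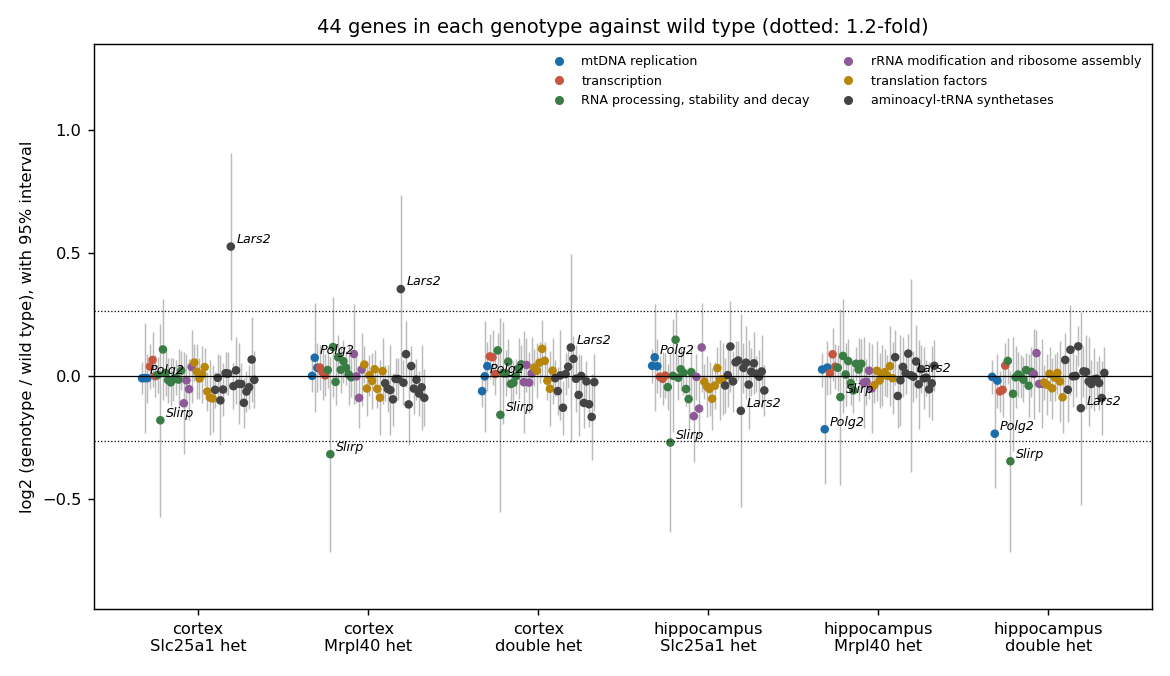
Log2 difference of each labelled genotype from wild type for the 44 genes, coloured by role, in cortex (left 3 columns) and hippocampus (right 3); bars are 95% intervals and dotted lines mark a 1.2-fold change. Nearly all points lie between the dotted lines, and the widest bars belong to Lars2 and Slirp.

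In cortex labelled Slc25a1 het the smallest p was that of Lars2. Its lowest, median and highest levels were 347, 567 and 822 CPM in wild type and 547, 675 and 1421 CPM in Slc25a1 het, 0.53 ± 0.186 on the log2 scale (adjusted p = 1.000). The groups overlapped, and the wild-type library of animal 1 was the lowest and the Slc25a1 het library of animal 14 the highest of all 30. Gm15564 was at 5.06, 5.98 and 9.30 CPM and 5.98, 6.98 and 13.6 CPM in the same groups. Sars2 was at 12.2, 12.8 and 14.1 CPM in wild type and 10.8, 12.2 and 13.0 CPM in Slc25a1 het (-0.11 ± 0.0506), again overlapping. Gfm2 (-0.06 ± 0.0395), Aars2 (-0.06 ± 0.0362) and Tars2 (-0.06 ± 0.0415) came next.

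In cortex labelled Mrpl40 het the genes with the smallest p were Lars2 (0.35 ± 0.186), Fars2 (-0.10 ± 0.0537), Ptcd2 (0.08 ± 0.0448), Slirp (-0.32 ± 0.195) and Vars2 (-0.07 ± 0.0445), with a smallest adjusted p of 0.732. For Lars2 the levels were 510.1, 735 and 995 CPM, which overlapped wild type. A list of 6 nuclear copies of mitochondrial genes was chosen with earlier results of these libraries known, so that its counts are a description and no evidence of a change. In cortex 0, 5 and 3 of the 6 were called higher in animals labelled Slc25a1 het, Mrpl40 het and double het, in hippocampus 0, 1 and 1, and all 6 were called higher in hippocampus than in cortex. Over all genes, calls in either direction were 0%, 0.0294% and 0.0686% in cortex and 0%, 0.00496% and 0.00992% in hippocampus. Between the tissues 39.8% of all genes were called higher in hippocampus.

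In cortex labelled double het Lrpprc had the smallest p. Its levels were 65.1, 72.2 and 77.4 CPM in wild type and 72.8, 78.1 and 83.3 CPM in double het, 0.10 ± 0.0358 (adjusted p = 0.264), and the groups overlapped. Vars2 was at 33.3, 34.2 and 37.8 CPM and 28.2, 31.7 and 35.7 CPM (-0.12 ± 0.0448). Fars2 (-0.13 ± 0.0542), Sars2 (-0.11 ± 0.0507) and Wars2 (-0.17 ± 0.0864) followed.

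In hippocampus no difference passed either. Against wild type, the animals labelled Slc25a1 het had Ptcd1 at 23.4, 25.2 and 28.8 CPM, against 19.3, 23.6 and 26.7 CPM in wild type (0.15 ± 0.0619, adjusted p = 0.599), and Ddx28 at 9.88, 11.1 and 11.5 CPM against 10.9, 12.3 and 12.8 CPM (-0.13 ± 0.0569), both with overlap. Tfb1m (-0.16 ± 0.0912), Iars2 (0.06 ± 0.0398) and Elac2 (-0.05 ± 0.0343) came next. Iars2, the isoleucyl-tRNA synthetase, had the smallest p in both other genotypes. Its levels were 47.0, 53.1 and 58.5 CPM in wild type, 54.1, 55.8 and 59.2 CPM in Mrpl40 het (0.09 ± 0.0398, adjusted p = 0.590) and 54.4, 57.7 and 61.1 CPM in double het (0.12 ± 0.0398, adjusted p = 0.761); the 2 comparisons share the wild-type libraries. The groups overlapped in each. Polg2 was at 3.58, 4.28 and 4.50 CPM in wild type, 2.12, 3.60 and 4.36 CPM in Mrpl40 het (-0.22 ± 0.109) and 2.97, 3.52 and 4.00 CPM in double het (-0.24 ± 0.109), and the lowest value was the library of animal 22, which stood apart in choroid plexus markers. Without the 4 libraries that stood apart, Polg2 was at -0.15 in Mrpl40 het and -0.30 in double het, with adjusted p-values of 0.881 and 0.412. The other genes named by rank were Tfb2m (0.09 ± 0.0532), Elac2 (0.05 ± 0.0342) and Aars2 (0.08 ± 0.0545) in Mrpl40 het, and Fastkd2 (0.09 ± 0.0459), Slirp (-0.35 ± 0.180) and Tfam (-0.06 ± 0.0413) in double het.

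The interaction asked whether the double het differed from the sum of both single effects on the log2 scale. None of the 44 genes passed in cortex or in hippocampus by edgeR or DESeq2, and an unadjusted p under 0.05 was reached by 2 genes in cortex and 0 in hippocampus, against 5.35% and 3.39% of all genes. All genes tested gave 0% called in each tissue. In cortex the smallest p was that of Lars2 (-0.76 ± 0.271, adjusted p = 0.810), whose double het libraries were at 502, 557 and 868 CPM, near wild type and below both single hets at the median. Mars2 (0.14 ± 0.0667), Gfm2 (0.10 ± 0.0575), Tsfm (0.13 ± 0.0832) and Wars2 (-0.19 ± 0.125) followed. In hippocampus the values were 0.12 ± 0.0660 for Fastkd2, -0.16 ± 0.0891 for Ptcd1, -0.13 ± 0.0766 for Tfb2m, 0.20 ± 0.131 for Tfb1m and -0.07 ± 0.0488 for Polg. Intervals were wider here, and lay within a 1.2-fold change for 29 of 44 genes in cortex and 30 in hippocampus.

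Whether a genotype's effect differed between hippocampus and cortex was tested in the animals with both tissues. None of the 44 genes passed for any genotype by edgeR or DESeq2, against 0%, 0% and 0.0234% of all genes for the labels Slc25a1 het, Mrpl40 het and double het. An unadjusted p under 0.05 was reached by 1, 3 and 2 of the genes, against 6.0%, 5.83% and 5.03% of all genes. For Slc25a1 het the values with the smallest p were those of Lars2 (-0.54 ± 0.224, adjusted p = 0.816), Sars2 (0.15 ± 0.0754), Ptcd1 (0.14 ± 0.0749), Gfm2 (0.10 ± 0.0577) and Gfm1 (-0.09 ± 0.0529). For Mrpl40 het they were those of Supv3l1 (-0.12 ± 0.0484, adjusted p = 0.829), Polg2 (-0.31 ± 0.132), Iars2 (0.10 ± 0.0464), Aars2 (0.12 ± 0.0597) and Fars2 (0.13 ± 0.0727). For double het they were those of Tfam (-0.15 ± 0.0626, adjusted p = 0.933), Tfb2m (-0.14 ± 0.0668), Polg2 (-0.25 ± 0.134), Tsfm (-0.16 ± 0.0899) and Fars2 (0.12 ± 0.0732). Tfam was at 33.9, 36.4 and 41.4 CPM in wild-type cortex and 36.9, 38.9 and 40.9 CPM in double het cortex, and at 37.8, 41.7 and 46.3 CPM and 38.4, 39.9 and 44.0 CPM in hippocampus, with overlap of the genotypes in both tissues.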

How the data were processed

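The authors deposited raw counts per gene, with 1 column for each of 59 libraries and no normalization. The submitters' processing notes name FastQC, HISAT2, featureCounts and DESeq2 and the build GRCm39 (mm39), and per the labels' protocols libraries were poly(A)-selected and stranded; versions, annotation and the strand setting were not stated. Rows with a gene ID but a blank symbol held 1.26% of counts and stayed in the fits. Groups followed the labels; the labels name animals but do not say how litters were shared, so that p-values measure the spread between these animals. The 44 genes and the other gene lists were chosen with earlier results of these data known.

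Counts were tested in R 4.3.3 with edgeR 4.0.16 (TMM, its filter on low counts, robust quasi-likelihood test, Benjamini-Hochberg adjustment over all genes, threshold 0.05), with all 4 genotypes of a tissue in 1 fit. Tissues were compared with the animal as a block, since the labels give both tissues the animal's number. Deviations of the 2 tissues of 1 animal correlated across 5000 genes with a median of 0.109 (range -0.029 to 0.414 over 29 animals). For the 2 tissues of different animals the median was -0.00987 over 841 pairs (range -0.394 to 0.407). Log2 differences carry their SE, and CPM used TMM library sizes over all 59 libraries. Gene lengths and GC contents were taken from GENCODE vM21 on GRCm38, used for gene models and not for coordinates of the authors' build; promoters came from RefSeq on GRCm38.p6. Copies were sought with blastn 2.17.0 at 95% identity over at least 100 bases. Named genes were the 5 with the smallest p where fewer than 5 passed; in the tissue comparison, the 4 largest rises, the 4 largest falls and 1 further gene per role were given in full. Alternatives were DESeq2 size factors, the DESeq2 1.42.0 Wald test, no filter, and length and GC trends removed. Others were fits of only the genotypes compared, a block by replicate number, and fits with no animal block. In another, the 6 animals were left out, which were picked by their Slc25a1 level in these same libraries. Further alternatives, leaving out the 4 hippocampal libraries and wild-type animals alone, were chosen after seeing the data. The fits were tested on simulated data.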

Additional observations from a re-analysis of the deposited data

Results flagged for a closer look

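Single libraries were compared with the rest of their group for 31 of the 44 genes in 8 groups each. In 11 of 248 groups (4.44%) the highest or lowest library stood further from the nearest other than Dixon's limit allows, and chance gives about 1 in 20 groups.

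In hippocampus labelled Mrpl40 het, 4 of these were the highest library, that of animal 22, which also stood apart in choroid plexus markers. It held 21.0 CPM of Twnk, with 18.9 CPM in the next library, 103 CPM of Lrpprc (next 88.2 CPM), 21.3 CPM of Fastkd2 (next 18.5 CPM) and 60.5 CPM of Gfm1 (next 50.6 CPM). In the same group Lars2 was highest at 1596 CPM in animal 21 (next 1070 CPM) and Wars2 at 8.90 CPM in animal 20 (next 7.67 CPM).

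In the other groups, Gfm1 was highest at 56.9 CPM in hippocampus of animal 29, labelled double het, and Mrm2 at 6.25 CPM in hippocampus of animal 7, labelled wild type. In cortex, Fastkd2 was highest at 19.2 CPM in animal 10, labelled Slc25a1 het, Pars2 was highest at 8.75 CPM in animal 27, labelled double het, and Mars2 was lowest at 21.0 CPM in animal 26, labelled double het.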

How the results depend on the processing

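In the tissue comparison 34 of the 44 genes passed the test, and 30 to 34 did under DESeq2 size factors, the DESeq2 Wald test, no filter, the 6 animals left out, length and GC trends removed, no animal block, or the 4 hippocampal libraries left out; in wild-type animals alone 24 passed. Without the replicate block by animal it was 33, and the calls that moved were those of Supv3l1, Mars2 and Mtpap. Of the 34 calls, Polrmt (0.0128) and Vars2 (0.0403) turned with length and GC trends removed. Genes that did not pass also turned, all within 0.06 of 0. With those trends removed these were Trmt10c (-0.00224), Mtif3 (0.0161), Gfm1 (-0.00746) and Mtrf1 (-0.0252). Without the 4 libraries they were Mtif3 (0.00324), Gfm1 (-0.00549) and Mtrf1 (-0.0135). In wild-type animals alone they were Mtif3 (0.0127), Tsfm (0.0514), Gfm2 (-0.0231) and Mtrf1 (-0.0422). Mtrf1 was at -0.00172 with DESeq2 size factors, -0.00105 with the DESeq2 Wald test and -0.0147 without the 6 animals, and Tfam in hippocampus labelled double het was at 0.00580 without them. The cause was not tested.

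In the genotype, interaction and tissue-difference comparisons 0 of the 44 genes passed under each alternative run. With the replicate number as a block the count also stayed at 0. Deviations correlated with a median of 0.0863 over 81 pairs of libraries with the same number in different genotypes (range -0.48 to 0.54), against -0.00521 over 570 pairs with different numbers. The labels tie no number to a shared litter or batch, so that the numbers were not taken as pairs. Some same-number pairs were negative, but these correlations cannot settle whether such libraries shared a batch. Counts were lowest for Slirp, with 14 to 51 per library.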
